A study of Mus musculus with 18 samples.

Results

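The adrenergic receptor genes Adrb3, Adrb1, Adra1a, Adra1b, Adra1d, Adra2a, Adra2b and Adra2c were taken from a gene count table of mouse adipose tissue by their symbol, which gave 8 of its 54347 rows. Polyadenylated RNA had been sequenced from 3 fat depots of 6 mice, the brown interscapular depot (iBAT) and the white inguinal (iWAT) and epididymal (eWAT) depots, so that 18 libraries fell into 6 groups of 3. All mice were 12 weeks old and of the C57BL/6N strain. The study's methods give a chow diet for these animals, while its results text also names animals on a high-fat diet. In each tissue, 3 libraries came from wild type (wt) litter mates and 3 from ΔGm15551 (ko) mice, in which CRISPR/Cas9 had removed exon 1 of the long noncoding RNA gene Gm15551 and which had been backcrossed to wild type mice. Each mouse gave all 3 tissues. The labels state no treatment and no sex, and the knockout is 1 mutant line.

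Adrenergic receptors are G protein-coupled receptors for noradrenaline and adrenaline, and in fat they receive the signal of the sympathetic nerves. The beta receptors couple to Gs, which raises cyclic AMP through adenylyl cyclase and so switches on lipolysis and, in brown fat, heat production by uncoupling protein. The alpha-2 receptors couple to Gi, which lowers cyclic AMP and restrains lipolysis, and the alpha-1 receptors couple to Gq, which acts through phospholipase C beta and calcium.

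All 8 genes are annotated as protein coding (GRCm38, GENCODE M21). The beta receptor genes are Adrb3 (chr8:27225776-27250616, minus strand) and Adrb1 (chr19:56722199-56733113, plus strand). The alpha-1 genes are Adra1a (chr14:66635251-66771168, plus), Adra1b (chr11:43774606-43901210, minus) and Adra1d (chr2:131545850-131562283, minus). The alpha-2 genes are Adra2a (chr19:54044151-54048982, plus), Adra2b (chr2:127363208-127367221, plus) and Adra2c (chr5:35278319-35281763, plus).

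On the scaled levels described below, 5 of the 8 genes differed between brown fat and both white fats with no overlap between libraries. For Adra1d the difference depended on the scaling. Adrb1, Adra1a and Adra1d were higher in iBAT, as were, without overlap, 17.7% of all 18728 genes tested against iWAT and 19.1% against eWAT. Adra2a and Adra1b were lower, as were 16.9% and 18.1% of all genes. To show the DNA in front of a gene from each set, the 250 bases before the RefSeq start are given for Adrb1, high in iBAT, and for Adra1b, low in iBAT. They were read 5′ to 3′ on the strand of the gene (RefSeq, GRCm38.p6), with matches on either strand to the TATA box word TATAAA, to the GC box word GGGCGG and to the CCAAT box word in capitals. The Adrb1 window is chr19:56721867-56722116 on the plus strand, and the Adra1b window, before the more distal of its 2 RefSeq starts, is chr11:43901238-43901487 on the minus strand.
Adrb1: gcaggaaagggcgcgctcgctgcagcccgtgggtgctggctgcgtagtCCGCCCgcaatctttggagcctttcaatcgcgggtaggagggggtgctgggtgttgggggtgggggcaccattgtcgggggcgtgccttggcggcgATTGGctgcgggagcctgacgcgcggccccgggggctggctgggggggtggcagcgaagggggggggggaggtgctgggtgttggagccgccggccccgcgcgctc
Adra1b: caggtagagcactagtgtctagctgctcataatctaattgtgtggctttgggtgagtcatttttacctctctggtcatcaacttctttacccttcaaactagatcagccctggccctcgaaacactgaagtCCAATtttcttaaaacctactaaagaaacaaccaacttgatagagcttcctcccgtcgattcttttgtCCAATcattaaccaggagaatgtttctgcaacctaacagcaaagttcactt

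The Adrb1 window held 74.0% G and C, more than 95.1% of the 32851 windows in the table, and the Adra1b window 41.6%, more than 14.9% of them. GGGCGG lay 202 bases before the Adrb1 start as its reverse complement and was absent from this Adra1b window, and 32.7% of all windows held it. The window before the other Adra1b start, chr11:43836490-43836739 on the minus strand, differed from the one shown, with 72.8% G and C, more than 94.0% of all windows, and GGGCGG as its reverse complement 185 bases before the start. Neither G and C content nor GGGCGG thus set Adrb1 apart from Adra1b over both of its starts. CCAAT lay 106 bases before the Adrb1 start as its reverse complement and 119 and 51 bases before the Adra1b start, and 33.8% of all windows held it. Neither window held TATAAA, which 12.4% of all windows did. For Adra2a, the other gene low in iBAT, 2 stretches of 30 bases are shown, chr19:54045167-54045196 around CACGTG and chr19:54045218-54045247 around TATAAA, both on the plus strand with the motif in capitals. They start 80 and 29 bases before the RefSeq start at the first letter of the motif, and both lie inside the Adra2a gene as GENCODE M21 draws it.
Adra2a, distal stretch: gggtcgacttccCACGTGggggctgacgcc
Adra2a, proximal stretch: tcatcctggggcTATAAAaccagtccagcg

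CACGTG was held by 6.02% of all windows. Among them was that of Adra2c, a gene not called lower in iBAT, at 152 bases before its start. The Adra2a window further held GGGCGG, 102 bases before its start. None of the windows of Adrb1, Adra1b and Adra2a held TGACGTCA (1.55% of all windows), AGGTCA (14% of all) or TTGCGCAA (0.164% of all), also searched on both strands. The RefSeq table had windows for 5 of the 8 genes, these 3 together with Adra2b and Adra2c.

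The libraries held 14997901 to 34389586 estimated counts. Levels are read counts normalised to library size (CPM) with scaling by the trimmed mean of M values (TMM), on which a floor of 3 counts stood between 0.0727 and 0.235 CPM. Mitochondrially encoded genes took 22.9% to 27.0% of counts in iBAT and 3.77% to 9.64% in the white fats. Gm15551 had 40 to 316 counts in the 9 wt libraries and 0 to 4 in the 9 ko libraries, which went with the labels. The summed level of 6 common adipocyte genes (Adipoq, Plin1, Fabp4, Lipe, Pnpla2, Cidec) was 20684 to 22846 CPM in iBAT, and that of 7 brown adipocyte genes was 7186 to 12775 CPM in iBAT, against 27.9 to 343 CPM in iWAT and 6.98 to 22.2 CPM in eWAT. In the white fats, 4 libraries stood apart by RNA of another tissue: iWAT ko replicate 1 held skeletal muscle RNA (6 markers, 4008 CPM), iWAT wt replicate 3 and ko replicate 2 held lymph node RNA (6 markers, 686 and 293 CPM), and eWAT ko replicate 3 held epididymis RNA (5 markers, 4654 CPM, of which 1 marker was at 0). Adipocyte genes summed to 8665, 12792 and 10559 CPM in iWAT wt replicate 3, iWAT ko replicate 2 and eWAT ko replicate 3, to 15758 CPM in eWAT wt replicate 1, and to 22246 to 24535 CPM in the other 8 white fat libraries. In eWAT ko replicate 2, the 7 smooth muscle and pericyte markers stood at a sum of 1488 CPM, against 555 to 944 CPM in the other eWAT libraries.

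**Figure D1:**
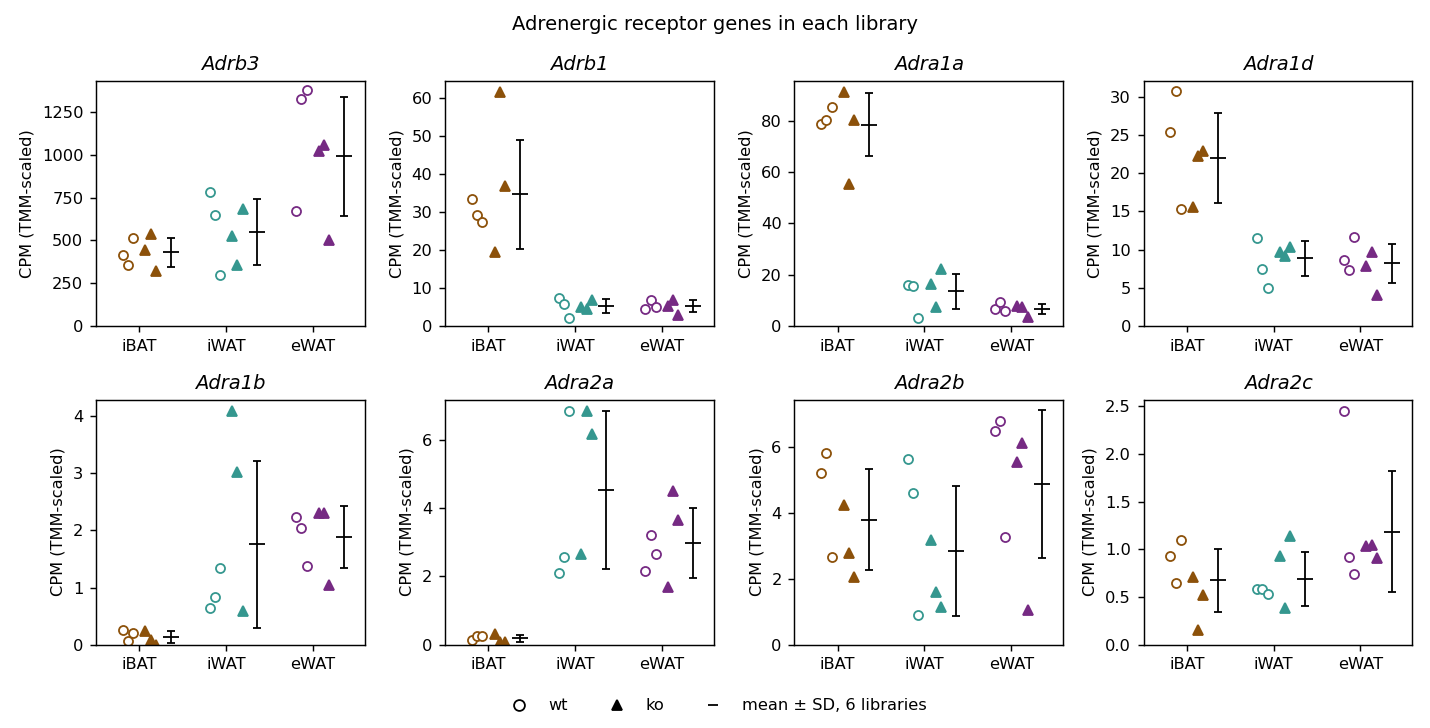
Level of each of the 8 receptor genes in CPM (TMM-scaled, own linear axis from 0 in each panel) in the 18 libraries, by tissue. Open circles are wt, filled triangles are ko, and the black marks give the mean ± SD of the 6 libraries of a tissue. The iBAT points of Adrb1, Adra1a and Adra1d lie above all white fat points, and those of Adra2a and Adra1b below them.

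Adrb3, the beta-3 receptor known for its high level in rodent fat cells, was by far the most abundant of the 8 transcripts per length in each tissue. On the scale of CPM per kilobase of annotated exon, it stood at 128 ± 25.3 in iBAT, 163 ± 56.8 in iWAT and 294 ± 103 in eWAT (mean ± SD, n = 6 mice each). Of the summed level per length of the 8 genes, Adrb3 thus made up 79.5% ± 4.48 in iBAT, against 93.9% ± 1.38 in iWAT and 96.7% ± 0.862 in eWAT. In iBAT, the remainder lay with Adra1d at 11.6 ± 3.11, Adrb1 at 10.3 ± 4.27 and Adra1a at 8.997 ± 1.40 CPM per kilobase. The place of Adra1a depends on the length used, since its annotated exons sum to 8728 bases and its longest transcript to 4282, and with the latter its share in iBAT was 9.55% in place of 5.80%. The ranges over mice of these 3 genes overlapped, so that their order was not resolved, and the other 4 genes were at 0.944 or less.

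In the white fats, Adra1d came next after Adrb3 per length, at 4.66 ± 1.21 CPM per kilobase in iWAT and 4.31 ± 1.36 in eWAT. In iWAT, Adrb1 at 1.57 ± 0.554 and Adra1a at 1.54 ± 0.793 CPM per kilobase followed and could not be ordered. In eWAT, Adrb1 at 1.56 ± 0.446 and Adra2b at 1.21 ± 0.562 followed, again with overlapping ranges. The place of Adra1a here also depends on the length used. With its longest transcript it stood at 3.15 CPM per kilobase in iWAT, with a range into that of Adra1d. In eWAT it was then at 1.58, above the mean of Adra2b. Adra2c had the lowest mean of the 8 in both white fats, at 0.200 ± 0.0818 in iWAT and 0.343 ± 0.184 in eWAT, with a range that overlapped that of Adra1b in both. In iBAT the lowest were Adra2a at 0.0377 ± 0.0222 and Adra1b at 0.0402 ± 0.0304 CPM per kilobase, which could not be ordered. Summed by class, the 3 alpha-1 genes stood at 20.6 ± 2.97 CPM per kilobase in iBAT, 6.72 ± 1.88 in iWAT and 5.65 ± 1.52 in eWAT. The 3 alpha-2 genes summed to 1.18 ± 0.427, 1.84 ± 0.137 and 2.17 ± 0.644 CPM per kilobase in the same tissues.

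**Figure D2:**
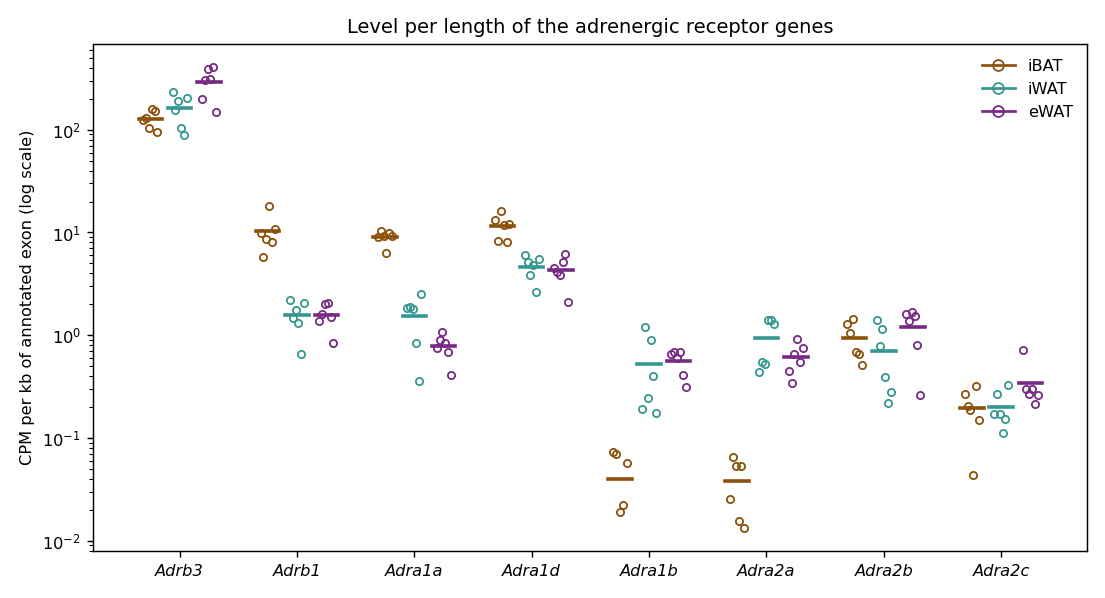
Level per length (CPM per kilobase of annotated exon, log axis) of the 8 receptor genes in the 3 tissues, with 1 point per library and a bar at the mean of 6. One iBAT library with 0 counts of Adra1b is not drawn but counts in its mean. Adrb3 lies above all others in each tissue, and Adra2a and Adra1b in iBAT form the lowest groups of points.

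The tissues were compared by edgeR's quasi-likelihood test over 18728 genes, with p-values adjusted by Benjamini-Hochberg. Of the 8 receptor genes, 3 were called higher in iBAT than in iWAT and 2 lower, where the shares over all genes tested were 24% and 30.3%, 54.3% in either direction. Against eWAT, 3 were called higher in iBAT and 3 lower, beside 24.4% and 30.2% of all genes, 54.6% in either direction. Between the white fats, 1 of 8 was called, beside 10.2% of all genes. The libraries of iBAT and of each white fat did not overlap for 5 of the 8, where 34.6% of all genes showed this against iWAT and 37.2% against eWAT, and those of iWAT and eWAT overlapped for all 8, beside 4.53% of genes that did not. With so many genes different between brown and white fat, the share called among the receptors was near that of all genes against iWAT and somewhat above it against eWAT, on 8 genes. Over all genes tested, the median log2 difference of iBAT was -0.14 from iWAT and -0.17 from eWAT, well below the changes of the receptors that were called.

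**Figure D3:**
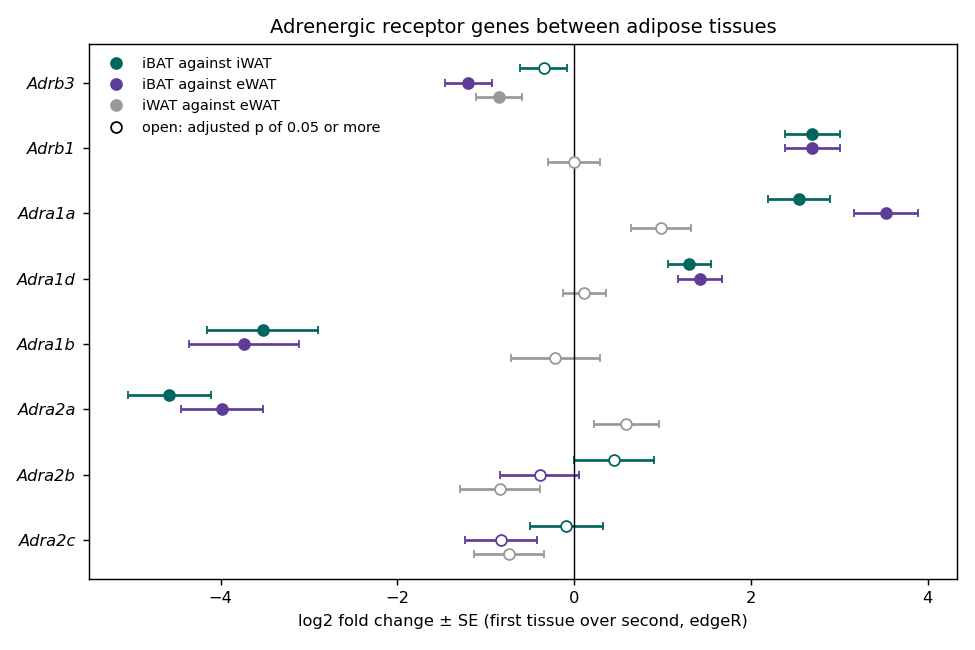
Log2 fold change ± SE (edgeR, 18 libraries) of each receptor gene for iBAT against iWAT, iBAT against eWAT and iWAT against eWAT, where a value above 0 means higher in the tissue named first. Filled points have an adjusted p under 0.05. Adrb1, Adra1a and Adra1d lie between 1.30 and 3.53 in both comparisons of iBAT, and Adra2a and Adra1b between -4.58 and -3.52.

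Among the beta receptors, Adrb1 was higher in iBAT and Adrb3 was higher in eWAT. Adrb1, the beta-1 receptor, stood in iBAT at 33.5, 29.2 and 27.4 CPM in the wt libraries and at 19.5, 61.6 and 36.9 CPM in the ko libraries. In iWAT it ranged from 2.24 to 7.40 CPM with a median of 5.44, and in eWAT from 2.87 to 6.91 CPM with a median of 5.24. Every iBAT library thus lay above every white fat library, and the spread among the iBAT libraries was itself wide, since 1 ko library was the lowest and another the highest. The mean was 6.51-fold that of iWAT and 6.56-fold that of eWAT, at log2 fold changes of 2.69 ± 0.31 (SE) in both comparisons (edgeR adjusted p = 1.90e-06 and 1.52e-06). Adrb1 was not called between iWAT and eWAT (log2 fold change 0.00 ± 0.30, edgeR adjusted p = 0.999), where 2 SE on each side reach from -0.59 to 0.59.

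Adrb3 stood in iBAT at 418, 354 and 515 CPM in wt and at 443, 537 and 322 CPM in ko. In iWAT it stood at 782, 649 and 297 CPM in wt and at 528, 355 and 685 CPM in ko. In eWAT it stood at 674, 1324 and 1378 CPM in wt and at 1020, 1059 and 501 CPM in ko. The eWAT values were the highest on average, but the lowest eWAT library lay within the range of iBAT. Within each mouse, Adrb3 was higher in eWAT than in iBAT in 6 of 6 mice, and the mean was 2.30-fold higher (log2 fold change of iBAT against eWAT -1.20 ± 0.27, edgeR adjusted p = 0.00113). The difference between iBAT and iWAT was not called (-0.35 ± 0.26, edgeR adjusted p = 0.280), with iWAT higher in 4 of 6 mice. Its size depended on the scaling, since with CPM from the library total alone the means were 293 CPM in iBAT and 639 CPM in iWAT.

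The call of Adrb3 between iWAT and eWAT was marginal. On the log2 scale iWAT lay at -0.85 ± 0.26 from eWAT (edgeR adjusted p = 0.0496), eWAT was higher in 4 of 6 mice, and with the mouse as a block the adjusted p was 0.113. Of the 18 single libraries left out in turn, only leaving out eWAT wt replicate 1, eWAT ko replicate 3, iWAT wt replicate 1 or iWAT ko replicate 3 kept the adjusted p under 0.05. Without the 4 libraries that held muscle, lymph node or epididymis RNA, it was 0.0921 at a log2 fold change of -0.63, while iBAT against iWAT was then called at -0.71 (edgeR adjusted p = 0.0126).

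Within each white fat, the lowest Adrb3 values were those of the libraries with the lowest adipocyte sums. In iWAT, wt replicate 3 and ko replicate 2, both with lymph node RNA, gave 297 and 355 CPM, and in eWAT, ko replicate 3 with epididymis RNA gave 501 CPM and wt replicate 1, with an epididymis sum of 16.3 CPM, 674 CPM. Set against the summed adipocyte genes, Adrb3 stood at 20.1 ± 3.33 CPM in iBAT per 1000 CPM of adipocyte genes, at 29.2 ± 3.83 in iWAT and at 48.5 ± 5.97 in eWAT (n = 6 each). On this scale the ranges of the 3 tissues, 15.3 to 23.5, 23.7 to 34.3 and 42.8 to 56.2, did not overlap. This scale was chosen after the values were seen, so no test is given. Its 6 genes are not neutral between tissues. In iBAT, 1 was called higher and 2 lower than in each white fat, beside 54.3% and 54.6% of all genes called in either direction. In bulk tissue, fewer cells of a type and less RNA per cell cannot be told apart.

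**Figure D4:**
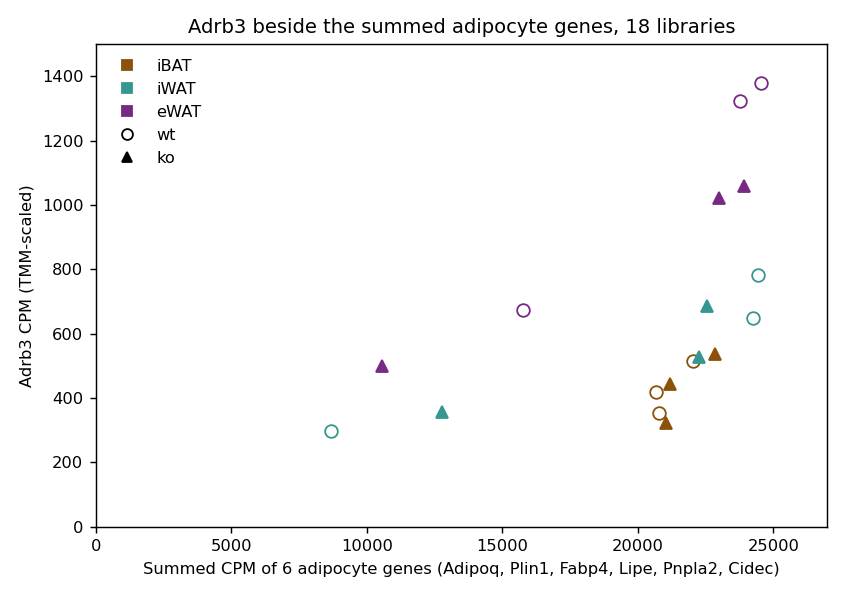
Adrb3 in CPM (TMM-scaled) against the summed CPM of 6 common adipocyte genes in the 18 libraries, open circles for wt and triangles for ko. At adipocyte sums of 20684 to 24535 CPM, the iBAT libraries lie at 322 to 537 CPM of Adrb3, iWAT at 528 to 782 and eWAT at 1020 to 1378. The 4 white fat libraries with adipocyte sums of 8665 to 15758 CPM lie to the left and lowest within their tissue.

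Adrb3 overlaps the antisense gene Gm45470 on the opposite strand, and 711 of the 3370 words of 31 bases in the Adrb3 transcripts occur elsewhere only in that gene. The strand setting of the quantification is not given in the sources used here, and without strand, reads of the 2 genes in the shared exons cannot be told apart. Gm45470 itself stood at 34.5 ± 2.32 CPM in iBAT, 59.1 ± 29.6 in iWAT and 141 ± 40.9 in eWAT, in the same order of tissues as Adrb3. No word of 31 bases was shared between any of the 8 receptor genes.

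Of the alpha-1 receptors, Adra1a and Adra1d were higher in iBAT and Adra1b was near the detection floor there. Adra1a stood in iBAT at 78.9, 80.1 and 85.3 CPM in wt and at 91.1, 55.3 and 80.4 CPM in ko. In iWAT it stood at 16.1, 15.8 and 3.16 CPM in wt and at 16.3, 7.35 and 22.2 CPM in ko, and in eWAT it ranged from 3.54 to 9.36 CPM with a median of 6.96. The iBAT libraries lay far above the others, with no overlap. The mean was 5.83-fold that of iWAT (log2 fold change 2.54 ± 0.35, edgeR adjusted p = 1.28e-05) and 11.6-fold that of eWAT (3.53 ± 0.36, edgeR adjusted p = 4.31e-07).

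Adra1a was higher in iWAT than in eWAT in 5 of 6 mice, at 13.5 ± 6.92 against 6.78 ± 1.96 CPM, but the difference was not called (0.98 ± 0.34, edgeR adjusted p = 0.0759). The 2 lowest iWAT values, 3.16 and 7.35 CPM, were those of the libraries with lymph node RNA. Without the 4 libraries that held other tissues, the 3 iWAT libraries, at 15.8 to 22.2 CPM, lay above the 5 eWAT libraries, at 6.02 to 9.36 CPM, and the log2 fold change was 1.28 (edgeR adjusted p = 3.72e-04).

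Adra1d stood in iBAT at 25.4, 30.7 and 15.2 CPM in wt and at 15.6, 22.2 and 22.8 CPM in ko. It ranged from 5.03 to 11.5 CPM with a median of 9.42 in iWAT, and from 4.02 to 11.7 CPM with a median of 8.22 in eWAT. Brown fat again lay above both white fats in every library, by a smaller margin than for Adra1a. The log2 fold change was 1.30 ± 0.25 against iWAT and 1.42 ± 0.25 against eWAT (edgeR adjusted p = 3.00e-04 and 1.24e-04), and between the white fats it was 0.12 ± 0.24 (edgeR adjusted p = 0.810). As TPM, Adra1d stood at 15.4 ± 4.13 in iBAT, 14.8 ± 3.80 in iWAT and 15.4 ± 4.68 in eWAT. The difference between brown and white fat thus depended on the scaling. The antisense gene Gm14285, which shares 118 of the 1869 words of 31 bases of Adra1d, had 1 to 9 counts per library.

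Within the alpha-1 class, the balance of Adra1a and Adra1d thus differed between tissues. The log2 ratio of Adra1a to Adra1d per length was -0.34 ± 0.54 in iBAT, against -1.79 ± 0.74 in iWAT and -2.46 ± 0.45 in eWAT (mean ± SD, n = 6). Its sign in iBAT depends on the length used. With the longest transcript, Adra1a stood there at 18.3 and Adra1d at 11.6 CPM per kilobase, while differences between tissues stay the same. The iBAT ratios, from -0.89 to 0.35, lay above all the iWAT and eWAT ratios, the highest of which was -1.10, and the iWAT and eWAT ratios overlapped. Without the 4 libraries that held other tissues, the iWAT ratios, -1.71 to -1.10, lay above the eWAT ratios, -3.16 to -1.84. These ratios restate the levels above and were given no test.

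Adra1b showed the opposite pattern. In iBAT its counts were 4, 1 and 3 in wt and 3, 1 and 0 in ko, at most 0.247 CPM. In iWAT it stood at 0.649, 0.829 and 1.35 CPM in wt and at 4.09, 3.03 and 0.586 CPM in ko, and in eWAT it ranged from 1.05 to 2.31 CPM with a median of 2.14. All white fat libraries lay above all iBAT libraries. From the pooled counts, iWAT was 12.3-fold (95% interval 6.94 to 24.1) and eWAT 14.5-fold (8.16 to 28.3) above iBAT, exact binomial intervals that cover counting error only. The log2 fold changes of iBAT were -3.52 ± 0.62 against iWAT and -3.74 ± 0.62 against eWAT (edgeR adjusted p = 1.64e-04 and 7.63e-05). Without the 4 libraries that held other tissues, the first shrank to -2.29 ± 0.51 and was still called, so that the pooled fold over iBAT in iWAT rests in part on those libraries.

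Both high iWAT values of Adra1b, 4.09 and 3.03 CPM, came from libraries with other tissues in them, ko replicate 1 with muscle RNA and ko replicate 2 with lymph node RNA. Macrophage markers (4 genes) summed to 277 and 508 CPM in these libraries and to 407 CPM in wt replicate 3, which had the next highest Adra1b (1.35 CPM), against 117 to 131 CPM in the other 3 iWAT libraries. The part of those tissues and cells in the Adra1b level was not tested. Without the 4 libraries, the iWAT values were 0.586 to 0.829 CPM and lay below the eWAT values of 1.38 to 2.31 CPM, at a log2 fold change of -1.59 that just missed the threshold (edgeR adjusted p = 0.0509). Over all libraries the fold change between the white fats was -0.21 ± 0.51 (edgeR adjusted p = 0.836).

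Of the alpha-2 receptors, Adra2a separated brown from white fat, and Adra2b and Adra2c did not. Adra2a, the alpha-2A receptor, had 2, 4 and 4 counts in the wt libraries of iBAT and 4, 1 and 1 in the ko libraries, at most 0.313 CPM. In iWAT it stood at 2.11, 2.56 and 6.84 CPM in wt and at 2.66, 6.83 and 6.16 CPM in ko. In eWAT it stood at 2.15, 3.20 and 2.66 CPM in wt and at 1.67, 4.48 and 3.63 CPM in ko. All 12 white fat libraries lay above the highest iBAT library.

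From the pooled counts, 744 in iWAT and 469 in eWAT against 16 in iBAT, Adra2a was 24.7-fold (95% interval 15.1 to 43.5) and 17.4-fold (10.6 to 30.7) above iBAT. The log2 fold changes of iBAT were -4.58 ± 0.47 against iWAT and -3.99 ± 0.46 against eWAT, the largest of the 8 genes (edgeR adjusted p = 4.96e-07 and 1.63e-06). Adra1b came next at -3.52 and -3.74. With 2 SE on each side the 2 genes overlapped in both comparisons, so their order was not resolved. The difference between the white fats was not called (0.59 ± 0.37, edgeR adjusted p = 0.339). The iWAT libraries fell into a lower set at 2.11 to 2.66 CPM and a higher set at 6.16 to 6.84 CPM. The higher set held both libraries with lymph node RNA and also ko replicate 3, where the lymph node markers summed to 7.47 CPM. Mesothelium markers (5 genes) summed to 24.2 to 54.7 CPM in the higher set and to 3.11 to 4.48 CPM in the lower set. Across tissues the 2 did not run together. In eWAT these markers summed to 68.8 to 122 CPM, above every iWAT library, while Adra2a lay below the higher iWAT set. In eWAT, the highest Adra2a value, 4.48 CPM, was that of ko replicate 2, which had the highest smooth muscle and pericyte sum. The part of these cell types in the Adra2a levels was not tested.

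The balance of Adrb3 to Adra2a was widest in brown fat, but that of Adrb3 to the alpha-2 class was not. The log2 ratio of Adrb3 to Adra2a per length was 11.96 ± 0.99 in iBAT, against 7.53 ± 1.26 in iWAT and 8.89 ± 0.79 in eWAT (mean ± SD, n = 6). The iBAT ratios, from 10.93 to 13.32, lay above all others, and those of iWAT (5.96 to 9.05) and eWAT (7.62 to 9.77) overlapped. The iBAT values rest on 1 to 4 counts of Adra2a per library. Against the sum of the 3 alpha-2 genes, of which Adra2b was the highest in iBAT, the log2 ratio of Adrb3 was 6.82 ± 0.66 in iBAT, against 6.38 ± 0.54 in iWAT and 7.05 ± 0.61 in eWAT. These ranges overlapped, at 5.95 to 7.73, 5.62 to 6.85 and 6.17 to 8.02, and the highest mean was that of eWAT.

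Adra2b, the alpha-2B receptor, ranged from 2.06 to 5.83 CPM in iBAT with a median of 3.50, from 0.888 to 5.65 in iWAT with a median of 2.37, and from 1.05 to 6.79 in eWAT with a median of 5.82. The 3 ranges overlapped widely. The log2 fold changes were 0.45 ± 0.45 for iBAT against iWAT, -0.39 ± 0.45 for iBAT against eWAT and -0.84 ± 0.45 for iWAT against eWAT, and none was called (edgeR adjusted p = 0.421, 0.481 and 0.257). With CPM taken from the library total alone, without TMM, the order of iBAT and iWAT turned, at 2.54 against 3.22 CPM. Adra2b was at 1.05 CPM in eWAT ko replicate 3 and at 0.888 CPM in iWAT wt replicate 3, the libraries with the lowest adipocyte sums of each tissue. Other libraries went the other way, since eWAT wt replicate 1, with 15758 CPM of adipocyte genes, stood at 6.49 CPM, and iWAT ko replicate 3, with 22538 CPM of them, at 1.14 CPM.

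Adra2c, the alpha-2C receptor, was detected with 2 to 17 counts per iBAT library, 9 to 31 per iWAT library and 15 to 56 per eWAT library. Its mean was 0.674 ± 0.330 CPM in iBAT, 0.691 ± 0.282 in iWAT and 1.18 ± 0.633 in eWAT. It was higher in eWAT than in iBAT in 5 of 6 mice and higher than in iWAT in 5 of 6, which were not the same 5. None of the 3 differences was called, with log2 fold changes of -0.09 ± 0.41, -0.83 ± 0.40 and -0.74 ± 0.40 for iBAT against iWAT, iBAT against eWAT and iWAT against eWAT (edgeR adjusted p = 0.872, 0.0935 and 0.255). With 2 SE on each side, the interval for iBAT against iWAT reached from -0.91 to 0.73.

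Of 66 listed genes that signal below the receptors or handle noradrenaline, 62 could be tested. In iBAT, 23 of the 62 were called higher and 19 lower than in iWAT, beside 24% and 30.3% of all genes. Against eWAT, 20 were called higher and 18 lower, beside 24.4% and 30.2% of all genes. The lower calls were thus near the share over all genes and the higher calls somewhat above it. Between iWAT and eWAT, 5 were called higher and 4 lower, beside 5.7% and 4.5% of all genes. Over the 62, the median log2 fold change between iBAT and iWAT was -0.08, and between iBAT and eWAT it was -0.02.

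Among the 9 G protein alpha subunits, 2 were higher and 6 lower in iBAT than in iWAT, and 2 higher and 5 lower than in eWAT, beside 24% to 24.4% of all genes called higher and 30.2% to 30.3% lower. These shares over all genes also stand beside the counts of the short lists that follow, which hold 10 genes or fewer and say nothing particular about a list. Gnas, which encodes the Gs alpha subunit that beta receptors use, stood at 3773 ± 409 CPM in iBAT, 706 ± 150 in iWAT and 640 ± 37.0 in eWAT, with no overlap between iBAT and either white fat. Its log2 fold changes were 2.42 ± 0.16 and 2.55 ± 0.16 (edgeR adjusted p = 4.65e-09 and 1.41e-09). Gnai1, a Gi alpha subunit that alpha-2 receptors use, went the other way, at 51.1 ± 10.6 CPM in iBAT, 155 ± 53.5 in iWAT and 233 ± 59.6 in eWAT. Gnao1, which encodes the Go alpha subunit, was higher in iBAT, at 69.2 ± 26.2 CPM against 11.3 ± 5.65 and 22.02 ± 5.83. Gnaq, the Gq alpha subunit of the alpha-1 pathway, was the only alpha subunit called between the white fats, lower in iWAT at -0.52 ± 0.12 (edgeR adjusted p = 0.0126).

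Of the 10 adenylyl cyclases, which make cyclic AMP, 4 were higher and 3 lower in iBAT in both comparisons, the lower ones at the share over all genes. Adcy3 stood at 253 ± 99.3 CPM in iBAT, 37.4 ± 7.14 in iWAT and 20.2 ± 6.71 in eWAT. Adcy5 was lower in iBAT than in both white fats, at 23.6 ± 15.5, 184 ± 50.5 and 157 ± 68.2 CPM. Neither gene's iBAT libraries overlapped those of the white fats, and both genes were called in both comparisons with iBAT (log2 fold changes of 2.76 ± 0.29 and 3.64 ± 0.30 for Adcy3, -2.96 ± 0.45 and -2.74 ± 0.45 for Adcy5).

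Of the 9 protein kinase A subunits and anchors, 4 were higher and 1 lower in iBAT than in iWAT, and 3 higher and 2 lower than in eWAT, beside 54.3% and 54.6% of all genes called in either direction. Akap1, which anchors the kinase to mitochondria, stood at 504 ± 44.5 CPM in iBAT against 90.1 ± 31.5 and 74.3 ± 4.10 CPM. Among the 4 phospholipase C beta genes of the alpha-1 pathway, 2 were higher in iBAT in each comparison, beside 24% and 24.4% of all genes, Plcb4 at 0.88 ± 0.16 and 0.58 ± 0.16 and Plcb3 at 0.34 ± 0.13 and 0.56 ± 0.13 on the log2 scale. Plcb1 and Plcb2 were lower in iBAT than in iWAT. For Plcb2, the iWAT level of 10.5 ± 13.4 CPM fell to 2.29 ± 0.733 CPM (n = 3) without the libraries that held muscle or lymph node RNA, beside 1.05 ± 0.450 CPM in iBAT.

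Of the 7 receptor kinases and arrestins, which switch receptors off, 2 were higher and 2 lower in iBAT than in iWAT, and 2 higher and 1 lower than in eWAT, where 54.3% and 54.6% of all genes were called in either direction. Grk3 stood at 129 ± 12.5 CPM in iBAT, 28.3 ± 6.41 in iWAT and 17.5 ± 4.55 in eWAT, and the arrestin gene Arrb2 was lower in iBAT by log2 fold changes of -1.99 ± 0.31 and -1.57 ± 0.31. Its iWAT mean was 37.9 CPM in all 6 libraries and 22.7 CPM in the 3 without RNA of another tissue. Of the 5 regulators of G protein signalling, Rgs2, which restrains Gq, stood at 286 ± 101 CPM in iBAT, 55.4 ± 24.7 in iWAT and 21.2 ± 8.51 in eWAT. Rgs16 was lower in iBAT, at 0.326 ± 0.155 CPM against 3.06 ± 2.11 and 1.702 ± 0.698, with 1.93 CPM in those 3 iWAT libraries. Among the 10 beta and gamma subunits, 4 were higher and 3 lower in iBAT than in iWAT, beside 24% and 30.3% of all genes, and Gnb4 was lower in iWAT than in eWAT at -1.47 ± 0.14 (edgeR adjusted p = 7.57e-06).

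Among the genes of noradrenaline uptake and breakdown, Maob, a monoamine oxidase, was called higher in iBAT against iWAT and eWAT alike. The noradrenaline transporter gene Slc6a2, at 0.239 ± 0.0434 CPM in iBAT, where 3 counts correspond to 0.186 to 0.235 CPM, was lower, with log2 fold changes of -1.84 ± 0.48 and -2.12 ± 0.48, and its iWAT mean of 0.868 CPM was 0.532 CPM in the 3 libraries without RNA of another tissue. Of 6 genes of catecholamine synthesis and sympathetic nerves, 2 could be tested, and the mean of Th, the rate-limiting enzyme, was at or below 0.0159 CPM in each tissue. Schwann cell and nerve markers (5 genes) summed to 135 to 200 CPM in iBAT, against 146 to 391 CPM in iWAT and 6.11 to 11.9 CPM in eWAT, so that eWAT lay below every library of the other tissues.

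The transcripts whose profile over the 18 libraries was most like that of a receptor were found by the root mean square difference of log2 CPM after each gene was centred on its own mean. For Adra1a they were Idh3a, Acadm and Dlat at differences of 0.29, 0.32 and 0.34, beside an SD of Adra1a itself of 1.69. The SD of the other receptors was 1.39 for Adrb1, 0.79 for Adra1d, 0.68 for Adrb3, 1.94 for Adra2a, 1.67 for Adra1b, 0.92 for Adra2b and 0.70 for Adra2c. For Adrb1 they were Gm4459, Ndufa4 and Ndufb4 (0.34, 0.34 and 0.35), and for Adra1d they were Tbkbp1, Urgcp and Mcur1 (0.30, 0.31 and 0.31). For Adrb3 they were Wdsub1, Gnb5 and Acvr1c (0.28, 0.28 and 0.29), of which Gnb5 encodes a G protein beta subunit. The neighbours of the other receptors were Cpxm1, Cdh11 and Doc2b for Adra2a (0.61, 0.62 and 0.65), Smpd3, Xpnpep2 and Timp2 for Adra1b (0.45, 0.55 and 0.58), Trp53inp2, Hoxc5 and Slc16a10 for Adra2b (0.46, 0.46 and 0.48) and Fndc10, Bbs4 and Gm16861 for Adra2c (0.43, 0.47 and 0.48).

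The second question of the design was whether loss of Gm15551 changed transcripts in fat. None of the 8 receptor genes was called between ko and wt across tissues, within any tissue or in the genotype by tissue interaction. Over all 18728 genes, 1 was called across tissues (0.00534%) and 1 in eWAT (0.00534%), in both cases Gm15551 itself, and 0 in iBAT, in iWAT and in the interaction. At an unadjusted p under 0.05, edgeR gave 411 genes across tissues, 238 in iBAT, 415 in iWAT, 814 in eWAT and 264 in the interaction, and DESeq2 called 4, 13, 4 and 10 genes in the first 4 of these tests and no receptor gene. For no receptor gene did the 3 ko and 3 wt libraries of a tissue fall apart without overlap, which 4.94% of genes did in iBAT, 4.91% in iWAT and 5.2% in eWAT.

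Across tissues, the log2 fold change of ko against wt was -0.17 ± 0.21 for Adrb3, 0.12 ± 0.24 for Adrb1, 0.02 ± 0.27 for Adra1a and -0.10 ± 0.20 for Adra1d. With 2 SE on each side, these intervals reach from -0.60 to 0.26 for Adrb3 and from -0.52 to 0.57 for Adra1a. They take the 3 libraries of a mouse as separate, so they do not measure the spread between mice. The intervals of the low genes were wider, from -0.48 to 1.37 for Adra1b and from -0.94 to 0.39 for Adra2c. The fold change furthest from 0 was that of Adra2b, at -0.63 ± 0.37, which was not called. Its ko mean was below its wt mean in each tissue, at 3.02 against 4.56 CPM in iBAT, 1.96 against 3.71 in iWAT and 4.23 against 5.51 in eWAT, with overlapping libraries in each. In eWAT this rested on ko replicate 3, at 1.05 CPM with epididymis RNA, beside 5.53 and 6.11 CPM in the other ko libraries, and without the 4 libraries that held other tissues the eWAT fold change turned to 0.077.

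**Figure D5:**
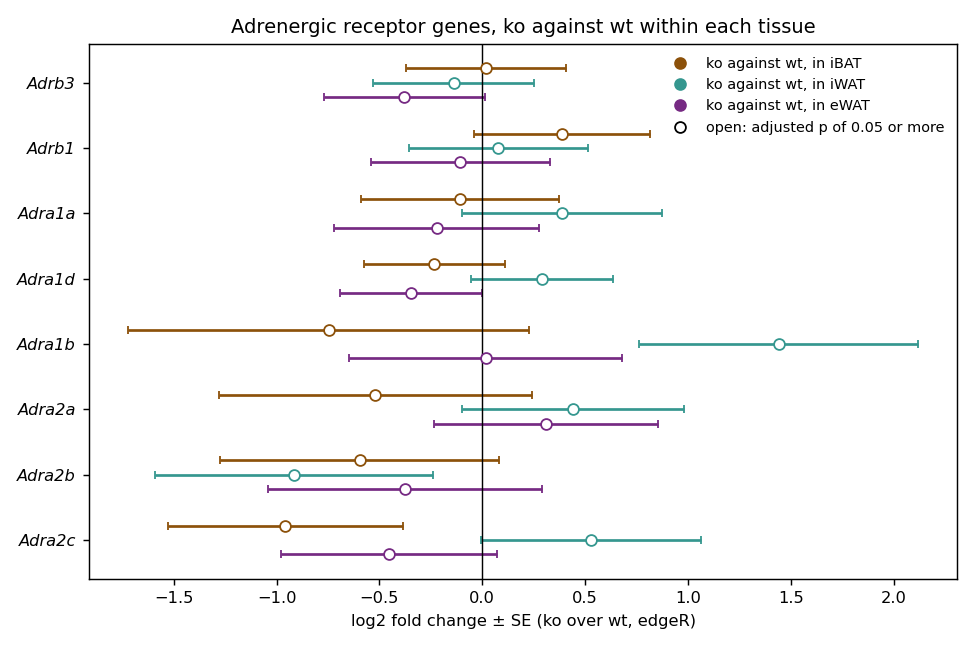
Log2 fold change ± SE (edgeR) of each receptor gene for ko against wt within iBAT, iWAT and eWAT, where a value above 0 means higher in ko. All points are open, since no adjusted p was under 0.05. The point furthest from 0 is Adra1b in iWAT at 1.44, where the 2 highest ko libraries held muscle or lymph node RNA.

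Within single tissues, the largest of the 24 fold changes was that of Adra1b in iWAT, at 1.44 ± 0.68, which was not called. It rested on ko replicates 1 and 2, at 4.09 and 3.03 CPM, which held muscle and lymph node RNA, while ko replicate 3 stood at 0.586 CPM beside 0.649 to 1.35 CPM in wt. Without the 4 libraries with other tissues it turned to -0.33. Adrb3 in ko and wt stood at 434 ± 108 and 429 ± 81.1 CPM in iBAT, 523 ± 165 and 576 ± 250 in iWAT, and 860 ± 311 and 1126 ± 392 in eWAT (n = 3 each). Adrb1 in iBAT stood at 39.3 ± 21.2 CPM in ko and 30.02 ± 3.12 in wt, with the ko libraries on both sides of the wt range.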

How the data were processed

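Estimated counts per gene were deposited by the authors as 1 table of 54347 genes and 18 libraries. Per the labels, polyadenylated RNA was extracted from frozen tissue and made into paired-end libraries with the NEBNext Ultra II RNA kit. Per the labels and the study's methods, reads were trimmed with cutadapt and quantified with Salmon against GENCODE transcripts (GRCm38), and DESeq2 was used. The strand setting is not given in the sources used here. Whether replicates were pooled did not arise, since each library is 1 tissue of 1 mouse of 1 line. In the main fits over 18 libraries, the 3 libraries of a mouse count as separate. Their p-values and SE thus measure the spread between libraries, which for ko against wt across tissues is not the spread between mice. With counts summed per mouse, no receptor gene was called.

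Counts were used as deposited, without rounding. Genes were kept by filterByExpr (18728, among them all 8 receptor genes, of which 5 reached 10 counts in every library), scaled by TMM and tested with edgeR 4.0.16 (R 4.3.3; glmQLFit, glmQLFTest) at a Benjamini-Hochberg adjusted p of 0.05. Tissues, and ko against wt across tissues, were fitted as tissue + genotype over 18 libraries, and genotype within tissue and the interaction with 1 mean per group. Depth was 14997901 to 34389586 counts per library, and intervals and floors of 3 counts cover counting error only. Levels of different genes were compared only as CPM per kilobase of the union of annotated exons (GENCODE M21).

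Same-numbered libraries of a tissue pair come from the same mouse, by the mouse identifiers in the labels, so the mouse block is a true pairing. The correlation of deviations between tissues of a mouse was -0.17 to 0.33, with a median of 0.057 over 18 pairs. The number shared by a wt and a ko mouse marks no shared origin in the labels.

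The genes named are the 8 receptors, Gm15551 and Gm45470 and Gm14285 as overlapping genes, for each pathway list at most 2 called genes per direction and comparison with the largest change, and for each receptor the 3 genes nearest in profile. Th and Plcb1 to Plcb4 are named as members of their lists. A result is left out here where it rests on an item that is not reported. Receptors, lists and marker genes were chosen with earlier results of these data known. Alternatives were DESeq2 1.42.0, its size factors, other filters, no mitochondrially encoded genes, the mouse or replicate number as a block, wild type libraries only, counts summed per mouse, the 6 libraries of a tissue only, leaving out each mouse, and leaving out the 4 libraries with other tissues. Leaving out each of the 18 libraries in turn was added after the data were seen.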

Additional observations from a re-analysis of the deposited data

Results flagged for a closer look

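In 2 of the 24 sets of 6 libraries formed by the 8 receptor genes and 3 tissues, 1 library lay further from its nearest neighbour than Dixon's 95% limit allows, where about 1.2 sets are expected by chance. Adra1a in iBAT was at 55.3 CPM in ko replicate 2, below the other 5 libraries at 78.9 to 91.1 CPM. The same library had the highest Adrb1 (61.6 CPM) and the highest Adrb3 (537 CPM) of iBAT, and its adipocyte genes, at 22846 CPM, were the highest of the tissue. Leaving out ko replicate 2 turned the fold change of Adrb1 between ko and wt in iBAT from 0.39 to -0.093, and neither value was called. Adra2c in eWAT was at 2.45 CPM in wt replicate 1, from 56 counts, above the other 5 libraries at 0.740 to 1.04 CPM. That library had adipocyte genes at 15758 CPM and epididymis markers at 16.3 CPM, whose part in the Adra2c level was not tested, and without that mouse the fold change of Adra2c between ko and wt in eWAT turned from -0.45 to 0.27.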

How the results depend on the processing

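The 5 receptor genes that separated iBAT from both white fats kept their direction and their call under every alternative in which they could be tested, 32 each for Adrb1, Adra1a and Adra1d and 31 each for Adra2a and Adra1b, and Adrb3 kept its call between iBAT and eWAT in 32 of 32. All these alternatives kept TMM or DESeq2 size factors. As TPM, which uses neither, Adra1d was at 15.4, 14.8 and 15.4 in iBAT, iWAT and eWAT, with overlapping ranges. Adrb1 was at 13.5, 4.93 and 5.53, and Adra1a at 12.0, 4.74 and 2.76. No test was run on TPM. A minimum of 10 counts in every library removed Adra2a, Adra1b and Adra2c, which left 3 receptor genes called for iBAT against iWAT. For iWAT against eWAT, the 1 receptor gene called became 2 with DESeq2 and 0 with the mouse as a block, with no filter and with wild type libraries only, and 0 to 1 when a mouse or library was left out. Adrb3 in this comparison passed the threshold in 10 of 32 alternatives (adjusted p 0.0119 to 0.319) and Adra1a in 4 of 32 (3.72e-04 to 0.568). The blocks changed no other receptor call.

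Counts of all genes moved by more than 1.5 times as follows. For iBAT against eWAT and iWAT, wild type libraries alone gave 6574 and 6595 calls in place of 10220 and 10164, with fewer samples. For iWAT against eWAT they gave 247, a minimum of 10 counts gave 1149, and leaving out a mouse or library gave 750 (without ko replicate 2) to 2117 in place of 1911. For ko against wt across tissues, the 1 call became 0 with a minimum of 10 counts and with counts summed per mouse, 3 with the replicate number as a block and 4 with DESeq2. In eWAT the 1 call became 0 with that minimum, with the 6 libraries of the tissue, with the block and without any 1 mouse, and 10 with DESeq2. In iBAT, 0 became 13 with DESeq2, 1 without the 4 libraries with other tissues and 0 to 1 without a mouse. In iWAT, 0 became 4 with DESeq2, 1 with no filter and 11 without those 4 libraries, and the interaction gave 2 without them. The causes were not tested.

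Fold changes that turned sign were not called in either direction. Without the 4 libraries, ko against wt turned to 0.043 for Adra1a, 0.077 for Adra2b and 0.17 for Adrb1 in eWAT, and for Adra1b to -0.11 across tissues and -0.33 in iWAT. With the replicate number as a block it turned to -0.017 for Adra1b in eWAT and -0.0092 for Adrb3 in iBAT, and with counts summed per mouse to -0.11 for Adra1a. With wild type libraries only, Adra1d and Adrb1 turned to -0.21 and -0.088 for iWAT against eWAT, and Adra2c to 0.65 for iBAT against iWAT. Adrb1 between the white fats, at 0.00, was also -0.019 with the mouse block, -0.0015 with no filter and -0.0033 without mitochondrially encoded genes.

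Leaving out a mouse or library, the ranges that crossed 0 were, for ko against wt across tissues, -0.16 to 0.17 (Adra1a), -0.19 to 0.0086 (Adra1d), -0.035 to 0.50 (Adra2a) and -0.092 to 0.25 (Adrb1). In eWAT they were -0.41 to 0.044 (Adra1a), -0.17 to 0.29 (Adra1b), -0.74 to 0.077 (Adra2b), -0.75 to 0.27 (Adra2c) and -0.40 to 0.16 (Adrb1), in iBAT -0.27 to 0.072 (Adra1a), -0.093 to 0.71 (Adrb1) and -0.17 to 0.19 (Adrb3), and in iWAT -0.064 to 0.72 (Adra1a), -0.28 to 0.43 (Adrb1) and -0.45 to 0.15 (Adrb3). For iWAT against eWAT they were -0.57 to 0.034 (Adra1b), -0.081 to 0.36 (Adra1d) and -0.20 to 0.16 (Adrb1), and for iBAT against iWAT -0.36 to 0.18 (Adra2c). Without TMM, iBAT levels were lower and white fat levels higher. In iBAT, iWAT and eWAT they were 293, 639 and 1211 CPM for Adrb3, 53.4, 15.4 and 8.31 for Adra1a and 14.9, 10.4 and 10.1 for Adra1d. The gap of Adrb3 between brown and white fat was thus wider, and that of Adra1d narrower. With the longest transcript as length the share of Adra1a was 9.55%, 1.43% and 0.452% in iBAT, iWAT and eWAT. Depth limits Adra2a, Adra1b and Adra2c in iBAT, where 0 to 17 counts per library were found, and 3 libraries per group limit the genotype comparisons.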
